A study of Mus musculus with 12 samples.

Results

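The cytoplasmic ribosomal protein genes were examined for binding of the glucocorticoid receptor (GR) in BWTG3 cells, a mouse hepatoma line. Members were the protein-coding genes whose symbol is Rpl or Rps, then a number and at most 1 further letter, and 77 of 21887 protein-coding genes met this rule. They comprised 30 genes of the small ribosomal subunit (Rps) and 47 of the large subunit (Rpl). A member was called in a library when that library's list held a GR peak whose centre lay inside the gene span or within 5 kb of it. By this rule 61 of the 77 members were called in at least 1 of 11 libraries (79.2%, against 53.3% of all genes), through 283 of 109257 nuclear peaks.

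Ribosomal proteins assemble with ribosomal RNA into the small subunit, which reads the mRNA, and the large subunit, which forms the peptide bond. Their genes are among the most highly transcribed housekeeping genes in dividing cells and are spread over many chromosomes. Many of their mRNAs begin with a run of pyrimidines, the 5′ terminal oligopyrimidine (TOP) tract, through which mTOR signalling controls their translation. GR is a nuclear receptor that moves to DNA when a glucocorticoid binds it, and its classical site is an inverted repeat of a short hexamer.

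Every group consisted of BWTG3 cells held without serum for 24 h, and GR was precipitated with an anti-GR antibody. NI (3 libraries) has a title naming neither agent, DEX (3) received 1 µM dexamethasone (Dex), a synthetic glucocorticoid, TNF (2) received 1000 U/ml tumour necrosis factor, an inflammatory cytokine, and TNFDEX (3) received TNF 1 h before Dex. Stimulation lasted 3 h in total in DEX, TNF and TNFDEX, so the time with Dex may not be the same in DEX and TNFDEX. The study concerns the effect of TNF on GR binding to DNA. The cells are 1 established tumour line, the submitters describe replicates as biological, and a peak near a gene does not measure its expression.

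Libraries held 39228805 to 51141996 tags and 2522 to 22589 nuclear peaks. The median member peak rested on 28 tags, for which counting error alone gives a 95% Poisson interval of 18.6 to 40.5. Peak strength is given as the authors' normalized tag count, tags in a peak per 20000000 tags of the library. A library without a peak in a region has no value there, which does not mean a level of 0. In 5 libraries (NI 3, DEX 3, TNF 2, TNFDEX 2 and TNFDEX 3) peaks on the mitochondrial genome took 0.355% to 0.541% of the tags, against 0.0064% to 0.0348% in the others. Those 5 libraries also held fewer member calls than the other libraries of their groups. Tests of how often members were called gave 0 members after adjustment both with and without stratifying by this share. They gave 0 of all 11663 genes as well, so these zeros cannot show whether the share matters. For Dex the smallest adjusted p of the exact permutation was 0.154 without and 0.427 with stratifying. Among 7 hepatocyte marker genes, 4 were called in at least 2 DEX libraries (57.14%, against 18.44% of all genes), Hnf4a among them but not Alb. Of 5 macrophage markers 0 were called in DEX, and of 5 stromal or endothelial markers 1. In NI 1 gene of each list was called, and in the TNF libraries 0. TNFDEX gave 4, 0 and 1.

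The peaks clustered at the starts of ribosomal protein genes. They merged into 92 regions, of 47491 in all, and 51 of the 92 lay inside a member's span. A RefSeq table of promoters gave a start for 58 of the members. Of 72 member regions with a known start, 40 (55.56%) were centred within 300 bp of it, against 15.11% of regions near the other protein-coding genes. The stretch from the start to 150 bp downstream held 31 of the 72 (43.06%), against 6.88% for the other genes. The 40 regions near a start had a median position of 70.5 bp downstream, with quartiles of 46 and 106, and 5 of them lay upstream. For the other genes, regions within 300 bp of a start had a median of 52 bp and quartiles of -66 and 127. Member spans were short, with a median of 3164 bp against 17169 bp for all genes, and 18.1% of member regions lay over 5 kb from it, against 65.4% for the other genes. Among regions within 5 kb of a start, 40 of 59 at members (67.8%) and 43.6% at the other genes were within 300 bp.

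**Figure D1:**
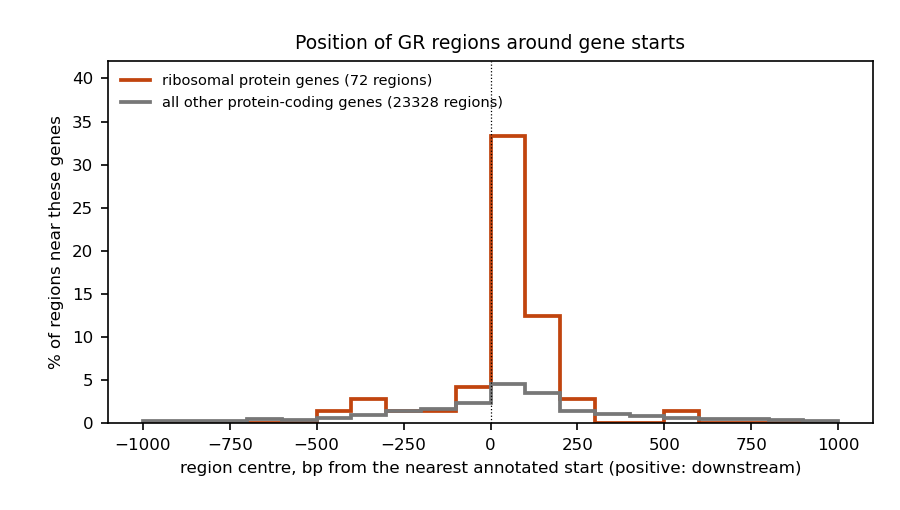
Share of GR regions (vertical axis, % of the regions near each class of genes) by position of the region centre relative to the nearest annotated start (horizontal axis, bp, in bins of 100 bp). The line for ribosomal protein genes (72 regions) peaks just downstream of the start, and the line for the other protein-coding genes stays below 5%; 43.06% and 6.88% of regions fell between the start and 150 bp.

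The sequences around the starts of 8 members show the letters at or near regions that were often called. The lines below give 15 bases before the annotated start and 15 from it on, along the gene, for 8 members called at the start in 5 to 9 libraries, and capitals mark runs of at least 5 pyrimidines. They come from RefSeq on GRCm38.p6, whose coordinates are those of mm10.
Rpl18 (chr7:45718056-45718085, plus strand): tgcgtctcgcaggccgCTCTTTCCCCgccc
Rpl7a (chr2:26910792-26910821, plus strand): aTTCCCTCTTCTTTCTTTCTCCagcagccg
Rps6 (chr4:86857353-86857382, minus strand): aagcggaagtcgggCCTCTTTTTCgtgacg
Rpl19 (chr11:98026909-98026938, plus strand): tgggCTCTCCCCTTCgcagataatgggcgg
Rps9 (chr7:3704026-3704055, plus strand): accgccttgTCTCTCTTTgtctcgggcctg
Rpl34 (chr3:130730323-130730352, minus strand): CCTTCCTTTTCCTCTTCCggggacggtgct
Rpl37a (chr1:72711245-72711274, plus strand): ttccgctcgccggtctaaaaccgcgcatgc
Rps19 (chr7:24884661-24884690, plus strand): ccgcacggtgagtgagggctctgggtcgcg
In 6 of these 8 genes such a run reached to or near the start, and in Rpl37a and Rps19 no run of 5 lay in the window. The Rpl19 window ends before its called region begins. Other members called at the start in 5 or 6 libraries are not shown. Of these, Rpl10a had no run of 5 in the window. Rpl15, Rpl27, Rpl6 and Rps27l had longest runs of 17, 5, 6 and 9. Over all 58 members with a start, 34 (58.62%) had 5 pyrimidines in a row within a few bases of it, against 36.7% of all 17492 genes in the table. The pyrimidine word CTTTCC, searched on the gene strand from 250 bases before the start to 50 after, was found in 39.66% of members and 15.85% of all genes. CTTTTCC was found in 13.79% and 4.35%.

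The full GR site was absent from the letters of these promoters, and ETS words were frequent in them. The full glucocorticoid response element, searched as AGAACA, any 3 bases and TGTTCT, was found in 0 of 58 members and in 2 of all 17492 genes (0.01%). The single GR hexamer AGAACA, on both strands, was found in 10 members (17.24%) and in 18.53% of all genes. An ETS word, CCGGAAG, was found in 23 members (39.66%) against 12.95% of all genes, and the YY1 word AAGATGGC in 8.62% against 3.57%. The SP1 word GGGCGG was in 56.9% of members and 49.23% of all genes, and the TATA word TATAAA in 10.34% and 14.8%. GC content was close to that of all genes, with medians of 57.0% and 57.3%. CG dinucleotides were more frequent, with medians of 21 and 15 per 300 bases. These matches describe letters in a window and are not binding sites.

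The ETS word and the GR hexamer were found in similar numbers of members with and without a start peak in at least 2 libraries. For pyrimidine runs the direction depended on the measure. Among the 29 members called at the start in at least 2 libraries, 11 held the ETS word and 6 the GR hexamer. Among the other 29 members with a known start, 12 held the ETS word and 4 the GR hexamer. A run of at least 5 pyrimidines that holds the start was found in 6 of the first 29 (20.69%) and 14 of the other 29 (48.28%). The looser measure, 5 pyrimidines in a row within a few bases of the start, went the other way, with 18 (62.07%) and 16 (55.17%). So did CTTTCC, with 13 (44.83%) and 10 (34.48%), while CTTTTCC was in 4 of each. These differences were not tested. The promoters of 3 members show the words in place, with capitals for matches to any of the words searched on both strands. Rps6 has an ETS word and a GR hexamer, Rpl37a a GR hexamer alone, and Rpl27 an SP1 word and a GR hexamer.
Rps6 (chr4:86857368-86857617, minus strand): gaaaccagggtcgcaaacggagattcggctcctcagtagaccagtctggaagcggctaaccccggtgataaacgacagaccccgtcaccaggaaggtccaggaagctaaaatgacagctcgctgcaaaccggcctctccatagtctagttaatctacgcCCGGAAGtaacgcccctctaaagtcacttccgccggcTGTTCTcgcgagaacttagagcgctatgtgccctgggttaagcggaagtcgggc
Rpl37a (chr1:72711010-72711259, plus strand): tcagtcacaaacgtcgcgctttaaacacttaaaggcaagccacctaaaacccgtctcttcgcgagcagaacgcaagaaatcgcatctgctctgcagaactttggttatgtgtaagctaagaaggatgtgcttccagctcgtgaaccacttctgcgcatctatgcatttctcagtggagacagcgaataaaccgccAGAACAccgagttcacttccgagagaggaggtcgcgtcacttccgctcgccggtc
Rpl27 (chr11:101441995-101442244, plus strand): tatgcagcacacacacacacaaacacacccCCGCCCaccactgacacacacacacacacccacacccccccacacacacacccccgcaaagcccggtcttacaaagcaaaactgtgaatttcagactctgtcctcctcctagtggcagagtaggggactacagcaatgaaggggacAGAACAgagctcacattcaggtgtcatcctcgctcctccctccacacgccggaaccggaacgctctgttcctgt

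Start peaks were frequent in libraries with and without Dex. A member start was counted as called when a peak centre lay within 300 bp of it. In the NI libraries 22, 18 and 4 of 58 members were called at the start, in DEX 16, 19 and 8, in the TNF libraries 20 and 6, and in TNFDEX 14, 6 and 9. The counts overlapped between all 4 groups, and the lower values were those of the 5 libraries with a high mitochondrial share. In every library the share of members called at the start was above that of all genes, by 3.46 times in TNFDEX 1 to 9.03 times in NI 1. Within 300 bp of the other end of the gene span a member peak was called in DEX 2 alone, for 1 member. All genes gave 0.06% to 0.47% there across the libraries. The 1 member was Rpl41, and its peak belonged to a region at the start of the neighbour Zc3h10. That region was called in 6 libraries and centred 343 bp from the Rpl41 span, so that the single call rests on the limit of 300 bp.

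**Figure D2:**
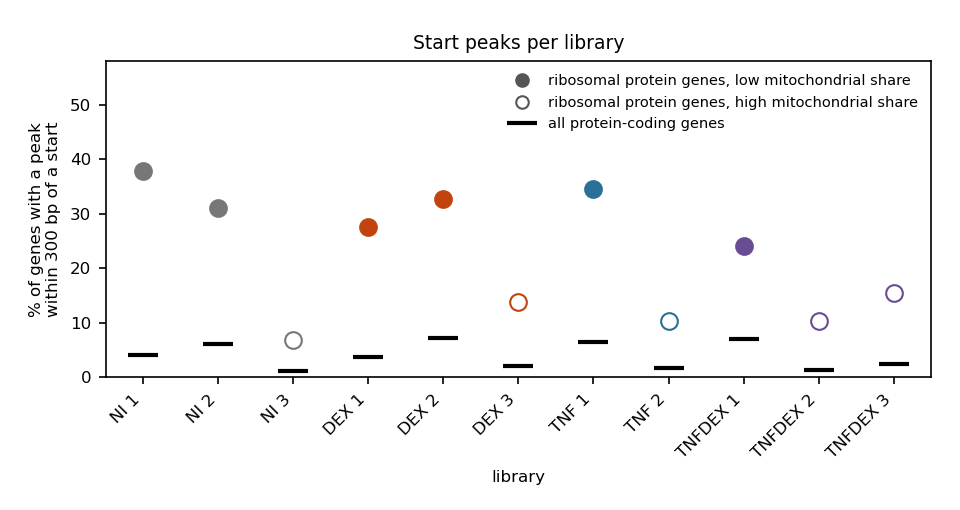
Share of genes with a peak within 300 bp of a start (vertical axis, %) in each library (horizontal axis). Circles are the 58 ribosomal protein genes with a known start, filled for a low and open for a high mitochondrial share, and bars are all 17492 genes; the circles lie above the bars in all 11 libraries, and within each group the open circles lie below the filled ones.

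Counted over at least 2 libraries of a group, 13 members were called at the start in NI (22.41%, against 2.34% of all genes) and 15 in DEX (25.86%, against 2.69%). In TNF 6 members were called at the start in both libraries (10.34%, against 0.737%), and in TNFDEX 11 (18.97%, against 1.67%). With the wider rule of 5 kb, 24 members were called in NI (31.17%, against 9.51% of all genes), 29 in DEX (37.66%, against 18.4%), 9 in the TNF libraries (11.69%, against 4.95%) and 20 in TNFDEX (25.97%, against 19.4%). The share in TNFDEX under the wider rule was close to that of all genes. In NI and DEX the 2 subunits gave similar shares: in NI 9 of 30 Rps and 15 of 47 Rpl genes were called, and in DEX 12 and 17. The numbers were 8 and 12 in TNFDEX (26.67% and 25.53%), and 2 and 7 in the TNF libraries (6.67% and 14.89%). These counts rest on few libraries. Leaving out 1 library, after which both remaining ones must hold a peak, gave 8 members without NI 1 (10.4%, against 2.92% of all genes) and 9 without NI 2 (11.7%, against 2.67%). It gave 16 without DEX 1 (20.8%, against 13.59%) and 8 without DEX 2 (10.4%, against 12.05%). In TNFDEX it gave 8 without replicate 1 (10.4%, against 11.64%) and 6 without replicate 3 (7.8%, against 12.09%), so that without DEX 2, TNFDEX 1 or TNFDEX 3 the members' share lay below that of all genes. TNF has 2 libraries, so that its count needs a peak in both, and the groups' counts are not matched.

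Other gene classes placed these shares. Of 10 ribosomal protein genes named outside the pattern (such as Rplp0 and Rack1), 3 were called in NI, 5 in DEX, 1 in the TNF libraries and 2 in TNFDEX. Of 21 translation factors and other genes of TOP mRNAs, 9 were called in NI, 8 in DEX, 0 in the TNF libraries and 5 in TNFDEX. Ribosome biogenesis genes gave 3, 1, 3 and 1 of 18. Mitochondrial ribosomal protein genes, which encode the separate ribosome of the organelle, gave 7, 17, 6 and 16 of 78, and proteasome genes 2, 3, 1 and 3 of 39. At the start, the NI share was 22.41% for the members and 37.5% (3 of 8) for the ribosomal protein genes outside the pattern. It was 13.33% (2 of 15) for translation factors and other TOP genes and 6.67% (1 of 15) for ribosome biogenesis. For mitochondrial ribosomal proteins it was 7.25% and for the proteasome 6.25%. A glucocorticoid response list, which holds known Dex targets such as Per1 and Tsc22d3, went from 2 of 10 in NI to 9 of 10 in DEX. The strongest peak of a called gene had a median of 171 normalized tags in that list, 16 among the members and 13.2 over all genes.

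The strength of member peaks overlapped between the groups. The median member peak of a library held 11.9, 14 and 12.6 normalized tags in NI, 13.4, 15.3 and 12.7 in DEX, 13.7 and 10.1 in the TNF libraries, and 12.45, 11.3 and 14.6 in TNFDEX. These medians overlapped between all 4 groups. The median over all nuclear peaks did not overlap between NI (7.8 to 10.1) and DEX (12.4 to 15.5). It was 7.3 and 12.2 in the TNF libraries and 11.3 to 15.8 in TNFDEX. Within its library the median member peak ranked at percentile 72.0 to 95.6 in NI and 38.5 to 55.1 in DEX. The percentiles were 60.1 and 83.2 in the TNF libraries and 36.5 to 49.9 in TNFDEX. The members' share of a library's nuclear peaks was 0.625%, 0.6% and 0.515% in NI, 0.277%, 0.284% and 0.139% in DEX, 0.414% and 0.315% in the TNF libraries, and 0.115%, 0.15% and 0.171% in TNFDEX. The shares overlapped only between DEX and TNFDEX, and all NI shares lay above those of the TNF libraries. Each share is taken over the library's own nuclear peaks, which numbered 2522 to 6501 in NI and 10479 to 13020 in DEX. They numbered 4130 and 8942 in the TNF libraries and 8639 to 22589 in TNFDEX.

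No single member passed a test of how often it was called. An exact two-sided permutation of the Dex labels within cells with and without TNF has 200 arrangements and a smallest p of 0.005, and it was run on 11663 genes with a call. After Benjamini-Hochberg adjustment 0 genes of all those tested were called (0.0%), the smallest adjusted p being 0.154. Unadjusted, 1 member (Rpl23a, exact permutation p = 0.02, adjusted 0.249) lay under 0.05, of 61 tested, against 8.03% of all genes. Calls were more frequent with Dex for 22 members and less frequent for 33, so that 36.1% were higher against 60.2% of all genes. These directions moved with the peaks counted: with equal numbers of strongest peaks per library 3 members were higher and 44 lower (6.4%, against 23.0% of all genes). They were 26 and 24 with peaks of at least 10 normalized tags, and 27 and 20 without library TNF 1, while the members' share stayed below that of all genes (46.4% against 73.1%, and 47.4% against 65.2%). For TNF 0 members passed with adjustment (0.0% of all genes) and 0 without it (0.309% of all genes).

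Among the 92 regions, the patterns across libraries differed by place. No region was called in all 11 libraries, the most was 9, and 37 regions were called in 1 library. The 40 regions near a start were called in 30% of library and region combinations with Dex and in 36.5% without. Those farther from a start gave 20.8% and 22.5%. The 20 regions at members with no start in the promoter table went the other way, with 29.2% and 27.0%. No such rates over all regions are given here, so these do not show a pattern particular to the members. With regions as the unit, 3 of the 92 had an exact permutation p under 0.05 for Dex, against 8.64% of all regions, and none passed adjustment (smallest adjusted p 0.0988). For TNF 0 of 92 did, against 0.0569% of all regions.

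**Figure D3:**
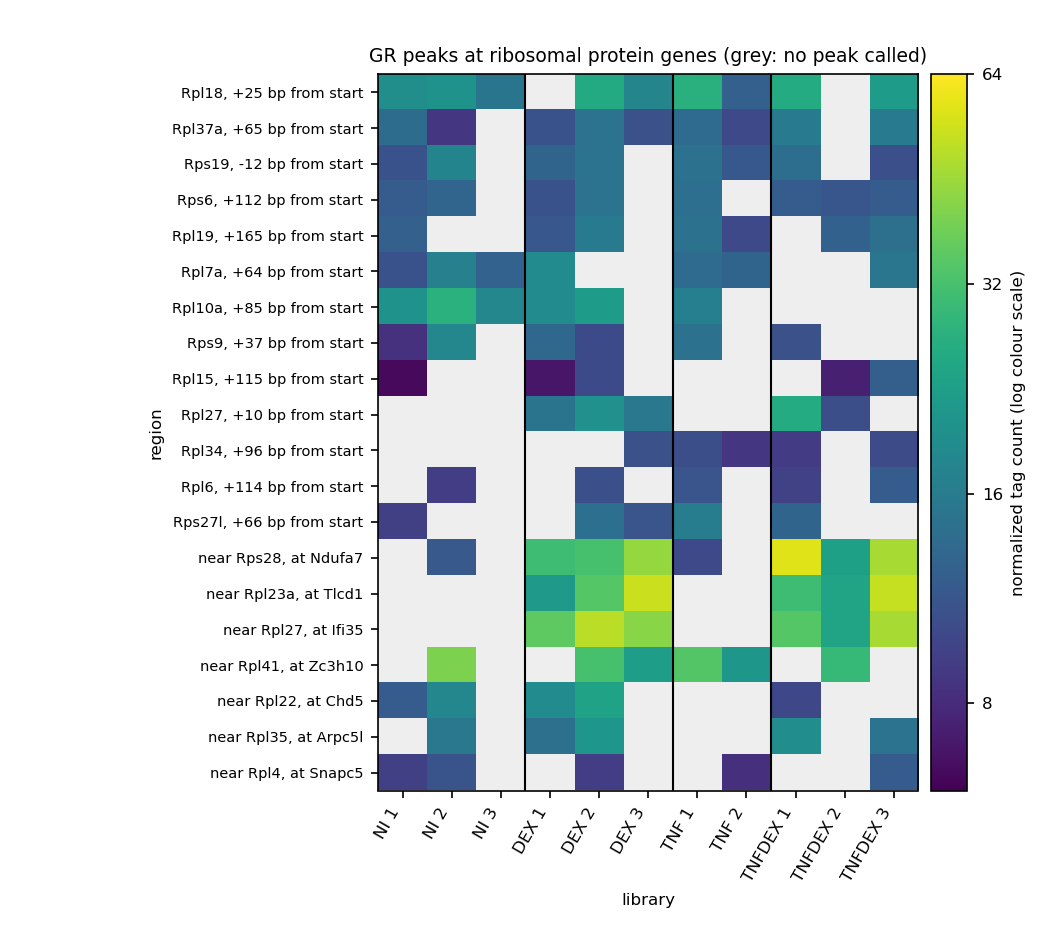
Normalized tag count (colour, log scale; grey where no peak was called) of 20 regions at ribosomal protein genes called in at least 5 libraries (vertical axis), leaving out regions inside members that have no start in the promoter table, in the 11 libraries (horizontal axis; black lines divide the groups). Start regions such as Rpl18 and Rps6 have peaks in all 4 groups, while the regions at Ndufa7, Tlcd1 and Ifi35 are strongest in the DEX and TNFDEX libraries.

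In the small subunit, Rps6, the protein phosphorylated downstream of mTOR, had a region 112 bp past its start that held 11.9 and 13 normalized tags in NI 1 and 2, 10.9 and 14.8 in DEX 1 and 2, 14.2 in library TNF 1, and 12, 11.3 and 11.9 in TNFDEX. It was called in 8 libraries within a narrow range, and NI 3, DEX 3 and TNF 2 had no peak. Rps19, mutated in Diamond-Blackfan anaemia, had a region at its start (12 bp upstream) with 10.9 and 17.4 in NI, 12.9 and 14.8 in DEX, 14.7 and 11.5 in the TNF libraries, and 14.1 and 10.7 in TNFDEX, each group overlapping the others. Rps9, whose bacterial counterpart affects decoding accuracy, had a region 37 bp past its start with 8.4 and 17.9 in NI, 13.4 and 10.2 in DEX, 14.7 in library TNF 1 and 10.8 in TNFDEX 1. A further region 510 bp past the Rps9 start was called at 7.3 in NI 3 and at 6.9 and 9.0 in DEX 1 and 3.

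Rps27a, made as a fusion with ubiquitin, was called inside its span at 11.1 in NI 2, 10.4 in DEX 1, 11.7 in library TNF 1 and 11.6 in TNFDEX 1, and its TNF 2 peak of 6.9 lay nearer to Mtif2. In the large subunit, Rpl18, like Rpl32 and Rpl37a, had a region called in 9 libraries. It lay 25 bp past a start, with 19.3, 20.3 and 15 in NI, 25.5 and 17.7 in DEX 2 and 3, 26.9 and 12.4 in the TNF libraries, and 25.7 and 22.2 in TNFDEX 1 and 3. The DEX and TNF values overlapped those of NI, while both TNFDEX values lay above the NI values, which was not tested. The region also overlapped the promoter window of Sphk2. Rpl37a, 65 bp past its start, held 13.9 and 8.7 in NI, 10.9, 14.8 and 10.8 in DEX, 13.7 and 10.1 in the TNF libraries, and 15.8 and 16 in TNFDEX.

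Rpl19, which forms a bridge between the subunits, was called 165 bp past a start at 12.4 in NI 1, 11.4 and 15.8 in DEX, 14.7 and 10.1 in the TNF libraries, and 12.5 and 14.4 in TNFDEX. Rpl7a, 64 bp past its start, held 10.9, 16.9 and 12.6 in NI, 18.8 in DEX 1, 13.7 and 12.9 in the TNF libraries and 15.2 in TNFDEX 3. It was called in all NI and TNF libraries and in 1 library each of DEX and TNFDEX. In limma's test of TNF against NI, run on the 151 regions called in all libraries of both groups, Rpl7a differed by -0.34 on the log2 scale (SE 0.49) and Rpl18 by -0.33 (SE 0.42), both with an adjusted p of 0.997, and 0 of the 151 passed (0.0%), with 0 at an unadjusted p under 0.05.

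Rpl32, a large subunit protein whose region lay 56 bp inside an end of its span, was the 1 member region called in all NI and DEX libraries. It held 13.9, 19.3 and 16 in NI and 10.9, 19.9 and 16.8 in DEX, then 18.8 in library TNF 1, and 12.9 and 18.1 in TNFDEX 1 and 3. The deposited values overlapped in full. Among the 178 regions called in all 6 libraries, the median log2 difference of DEX against NI was 0.76 on the deposited scale. Relative to these regions, under TMM scaling (a trimmed mean of log ratios between libraries), Rpl32 differed by -0.93 (SE 0.37, limma adjusted p = 0.143), and 32 of the 178 passed (18.0%). In the fit with a replicate block, the same difference had a limma adjusted p of 0.0159, and 56 of the 178 regions passed. With the mitochondrial share as a term the limma adjusted p was 0.011, and 60 passed. The block takes the numbers to pair NI with DEX libraries, which cannot be told apart from the mitochondrial batch. On the deposited scale the Rpl32 difference was -0.08 (SE 0.53, limma adjusted p = 0.914). The value under TMM scaling is thus a difference from regions that were higher with Dex and not a fall in the deposited signal.

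Rpl10a, 85 bp past its start, held 20.3, 27.1 and 17.9 in NI, 18.8 and 21.9 in DEX 1 and 2, and 16.7 in TNF 1. It was called in all NI and in no TNFDEX library, as were 13 regions of all (0.0274%), 2 of them member regions. The exact permutation p was 0.2 for Dex and 0.08 for TNF (adjusted 1.0 for both). Rpl34, 96 bp past a start, was called in both TNF libraries (10.6 and 8.7) and in no NI library, as were 0.244% of all regions, and in DEX 3 at 10.8 and TNFDEX 1 and 3 at 9.1 and 10.3. The TNF 1 and TNF 2 peaks did not overlap, with centres 22 bp and 155 bp past the start nearest to each. The TNFDEX 1 peak joined them into 1 region, so that the pattern rests on this merging. These Rpl34 peaks were weak, and the exact permutation p for TNF was 0.065 (adjusted 1.0).

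Rpl12 was called in both TNF libraries and in no TNFDEX library, but at different regions: the TNF 1 peak of 12.7 lay in a region centred 61 bp past its start, and the TNF 2 peak of 17.4 in a region centred 5184 bp past it. The downstream region also held 11.9 in NI 1 and 13.4 and 17.8 in DEX 1 and 2, and the start region 12.9 in DEX 1. Rpl41, which encodes a very short basic protein, was called mainly through a region at the start of its neighbour Zc3h10, centred 21 bp upstream of that start. That region held 40.1 in NI 2, 32.1 and 22.4 in DEX 2 and 3, 34.0 and 21.1 in the TNF libraries, and 29.3 in TNFDEX 2. DEX, TNF and TNFDEX overlapped, and the 1 NI peak was higher than all of them.

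The 3 regions with the highest values near members lay in neighbouring genes, and their peaks were mainly in libraries with Dex. A region inside Tlcd1, 3802 bp from the span of Rpl23a (a protein at the ribosome's exit tunnel), held 21.3, 34.2 and 53.0 in DEX and 30.7, 23.9 and 51.8 in TNFDEX. No NI or TNF library had a peak in this region. A separate region inside Tlcd1, 2448 bp from the Rpl23a span, was called in NI 2 alone, at 19.8. A region inside Ifi35, 3070 bp beyond the end of Rpl27, held 35.7, 50.0 and 42.2 in DEX and 34.4, 23.9 and 46.9 in TNFDEX, with no peak in NI. In TNF 1 a separate peak of 9.1 ended 5 bp short of this region, so that its lack of a call in TNF rests on that gap. A region inside Ndufa7, 4444 bp upstream of Rps28, held 30.7, 32.1 and 43.9 in DEX and 56.8, 23.1 and 46.9 in TNFDEX, against 11.6 in NI 2 and 10.1 in TNF 1.

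At the first 2 of these regions all DEX libraries and no NI library had a peak. With the start of Rpl27, 3 member regions showed that pattern, against 8.03% of all regions. Called in all TNFDEX and no TNF libraries were 2, against 8.34%, and in all TNFDEX and no NI libraries 2, against 9.44%. The members' numbers were thus no higher than those of all regions. The exact permutation p for Dex was 0.005 at the Tlcd1 and Ifi35 regions (adjusted 0.0988), the smallest the design can give, and 0.08 at the Ndufa7 region (adjusted 0.618).

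None of these 3 regions passed the test of TNFDEX against DEX. In limma's test of TNFDEX against DEX, the log2 difference was -0.16 (SE 0.32, adjusted p = 0.931) at the Tlcd1 region and -0.47 (SE 0.29, adjusted p = 0.792) at the Ifi35 region. At the Ndufa7 region it was 0.02 (SE 0.22, adjusted p = 0.998). Of 4022 regions tested 1 passed (0.0249%), and it was not a member region. A smaller difference than these errors resolve was not detectable. Member regions did not meet the condition for the tests of TNFDEX against TNF, of TNFDEX against NI, or of the Dex effect with and without TNF, since none was called in all the libraries required.

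**Figure D4:**
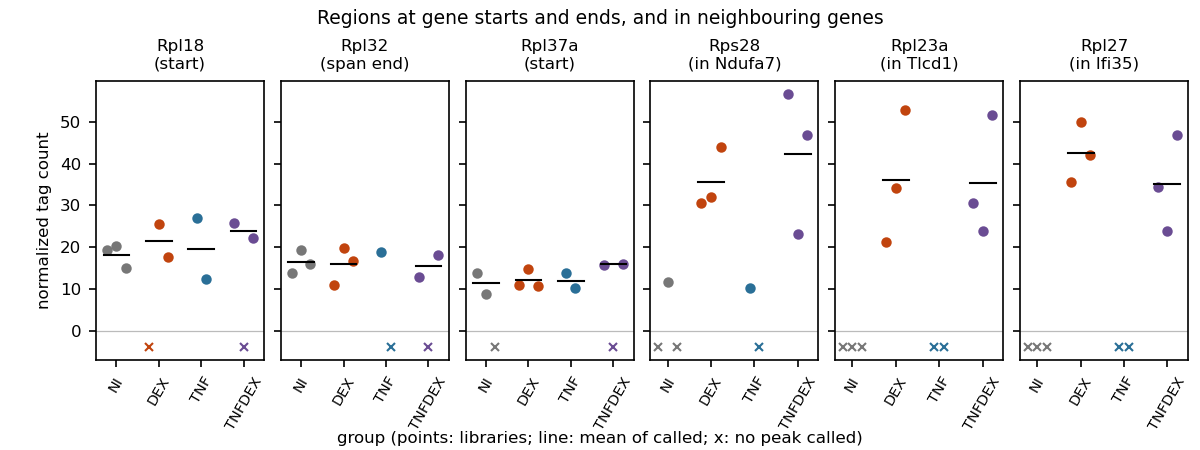
Normalized tag count (vertical axis) in each library by group (horizontal axis) for 3 regions at ribosomal protein genes (Rpl18, Rpl32, Rpl37a) and 3 in neighbouring genes (Rps28 in Ndufa7, Rpl23a in Tlcd1, Rpl27 in Ifi35). Points are libraries, lines the mean of the libraries with a peak, and crosses libraries without one; the first 3 regions stay between 8.7 and 26.9 in all groups, and the other 3 reach 21.3 to 56.8 in the DEX and TNFDEX libraries.

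Rpl27 combined both kinds of peak. At its start the DEX libraries had peaks of 14.9, 19.9 and 15.5 and TNFDEX 1 and 2 had 25.7 and 10.6, in a region centred 10 bp past the start. The NI libraries instead had peaks of 9.9, 13.5 and 10.7 in a region centred 285 bp past the start, and no TNF library had a peak in either. The second region was called in all NI and no DEX libraries, as were 0.0147% of all regions, and in all NI and no TNF libraries, as were 0.019%. The regions were 50 bp apart at their closest, and merging peaks across that gap would give 1 region called in all NI and DEX libraries. The exact permutation p for Dex was 0.02 at the first (adjusted 0.232) and 0.1 at the second (adjusted 0.717). Taking the strongest peak within 5 kb as the value of a gene, Rpl27 was higher in DEX than in NI by 0.92 on the log2 scale (SE 0.31, limma adjusted p = 0.048), a difference between the Ifi35 peak in DEX and the start peak in NI.

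**Figure D5:**
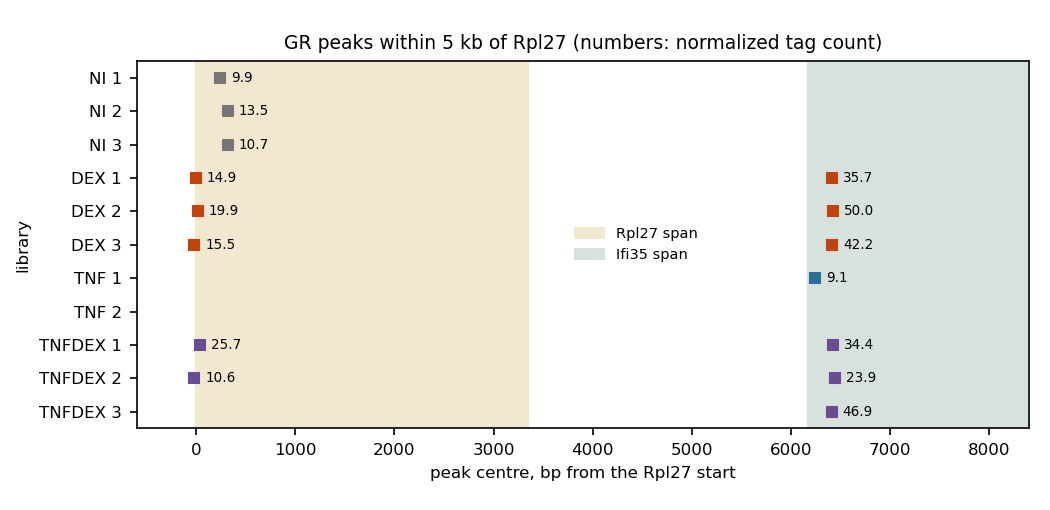
GR peaks within 5 kb of Rpl27 in each library (vertical axis) by distance of the peak centre from the Rpl27 start (horizontal axis, bp), with the normalized tag count beside each peak and the spans of Rpl27 and Ifi35 shaded. The DEX and TNFDEX libraries have peaks of 23.9 to 50.0 in Ifi35, and the NI libraries have peaks of 9.9 to 13.5 inside Rpl27 past its start.

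Rpl3l, the muscle paralog of Rpl3, was called in TNF 2 alone, at 10.1, and Rpl10l and Rpl39l, which are testis paralogs, in no library. Rps27l, a paralog induced by p53, was called 66 bp past a start at 9.4 in NI 1, 14.3 and 11.2 in DEX 2 and 3, 16.2 in library TNF 1 and 12.9 in TNFDEX 1. These paralogs were named after their values were seen. In all, 16 members had no peak: Rpl10l, Rpl17, Rpl21, Rpl23, Rpl26, Rpl29, Rpl31, Rpl32l, Rpl35a, Rpl39, Rpl39l, Rpl7, Rps15, Rps25, Rps26 and Rps4x. A further 13 were called in 1 library, among them Rpl10, Rpl24, Rpl27a, Rpl28, Rpl30, Rpl36a, Rpl37, Rpl3l, Rps20, Rps21, Rps27 and Rps3. Ribosomal protein genes have many processed pseudogenes, and how reads that match several places were handled is not given in the sources used here.

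The window set the number of members called. It was 48 with the span alone (62.3%, against 42.2% of all genes), 52 within 1 kb (67.5%, against 46.7%), 61 within 5 kb and 65 within 10 kb (84.4%, against 59.9%). The outermost peak inside the limit was that of Rpl38 in TNF 2, 4993 bp from the span at 7.8 normalized tags. Just outside lay peaks of Rpl31 at 5001 bp (9.6), Rpl3l at 5077 bp (11.3) and Rpl29 at 5254 bp (64.2).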

How the data were processed

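GR ChIP-seq was analysed in 11 libraries, each with its own peak list; the file of 1 input sample was not used here. The build mm10, HOMER 4.6, Bowtie 1.0.0 and CASAVA 1.8 come from the submitters' processing notes. Trimming, duplicate removal and the treatment of reads matching several places were not given in the sources used here. Peaks were called per library against an input at a false discovery rate of 0.001, 4-fold over input and over the surrounding 10000 bp, per the file headers. The deposited signal is the normalized tag count per 20000000 tags. The deposited ratios are folds over input and surroundings, the deposited fraction is the focus ratio, and the deposited scores and p-values are those of findPeaks; these describe or filter peaks within a list.

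Peaks sharing 1 bp were merged into regions, with the strongest peak kept per library. Genes and promoters came from RefSeq on GRCm38.p6, and 19 members were not in the promoter table. Calls were tested by exact stratified permutation. Signal was tested with limma 3.58.1 (R 4.3.3) on log2 normalized tag counts, with no pseudocount, of regions called in every library compared, with TMM scaling over them; these regions are selected on being called. p-values were adjusted by Benjamini-Hochberg over all features at 0.05. Both procedures were tested on simulated data. Python 3.11.15, numpy 2.4.6, pandas 2.3.3 and matplotlib 3.10.9 were used.

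Members with a peak in every library of a group, with calls that separate groups or with a called region were named with values, and others by count; some members' own values are not reported here. Members and gene lists were chosen with earlier results of these data known. The labels number the replicates. Over 117 regions called in all 11 libraries, same-numbered NI and DEX libraries deviated together (correlations 0.387, 0.375 and 0.546). These numbers were therefore taken to pair the samples. NI and DEX libraries with other numbers but the same mitochondrial batch also deviated together (0.368 and 0.306), so this pairing cannot be told apart from the batch.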

Additional observations from a re-analysis of the deposited data

How the results depend on the processing

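Of the counts recomputed under other settings, 138 stayed within 1.5 times the reported one and 21 did not. Most of the 138 are test counts, for which no member passed under the reported or the other setting. In the call tests no gene of all those tested passed, and some signal fits held no member to test. Such counts cannot show stability. Most of the 21 are counts of members called in a group. Requiring 8-fold over input left 9 members each called in NI and DEX, 1 in TNF and 5 in TNFDEX (11.7%, 11.7%, 1.3% and 6.5%, against 5.19%, 12.41%, 2.33% and 13.72% of all genes). Taking the 2522 strongest peaks of each library left 19 members in NI, 3 in DEX, 2 in the TNF libraries and 3 in TNFDEX (24.7%, 3.9%, 2.6% and 3.9%, against 5.28%, 4.55%, 1.67% and 4.49%). Requiring every library of the group left 6 in NI, 8 in DEX and 4 in TNFDEX (7.8%, 10.4% and 5.2%, against 1.86%, 10.81% and 10.77%). The gene span alone gave 11 in TNFDEX (14.3%, against 14.73%). Under these settings the members' share was above that of all genes in NI, and at or below it in DEX and TNFDEX, except with the span alone in DEX (26%, against 13.6%). Leaving out 1 replicate at a time gave 8 to 19 in NI, 8 to 21 in DEX and 6 to 14 in TNFDEX; the lowest came without NI replicate 1, DEX replicate 2 and TNFDEX replicate 3, and TNFDEX replicate 1, NI replicate 2 and DEX replicate 1 gave 8, 9 and 16. In addition, 2 settings were added after the data were seen. The low mitochondrial libraries alone, used for the NI and DEX counts only, are those left without replicate 3. They gave 19 and 21 members (24.7% and 27.3%, against 7.64% and 14.41% of all genes). Regions as the unit were used for the 2 call tests only, and 0 member regions passed adjustment.

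For signal, DEX against NI called 1 member with the replicate block (56 of all 178 regions passed), 1 with the mitochondrial batch as a term (Rpl32, adjusted p = 0.011; 60 of 178) and 2 with genes as the unit (Rpl27 and Rpl32; 67 of 258). TNFDEX against TNF called 0 to 1 when a replicate was left out, the 1 being Rps28 without TNF replicate 2 (1.44 on the log2 scale, adjusted p = 0.0129). The TNF arm was then 1 library (10.1), assumed to vary like TNFDEX, and 504 of 1799 regions passed. Differences that changed sign were none of them called: Rpl18 of TNF against NI (0.017 on the deposited scale) and Rpl7a (0.006 on that scale, 0.032 with the replicate block, and -1.035 to 0.458 with a replicate left out, the highest without TNF replicate 1), and of TNFDEX against DEX Rpl23a (-0.359 to 0.152 with a replicate left out, the highest without TNFDEX replicate 1) and Rps28 (-0.057 to 0.092, the lowest without DEX replicate 2). The cause was not tested. Numbers did not pair TNFDEX with DEX libraries (correlations 0.464, -0.332 and 0.645) or TNF with NI (0.363 and -0.515). The block changed no other call, and in the call tests its smallest possible p is 0.0625. Depth limits the weakest peaks most, and the lowest member peak of a library rested on 12.9 to 21.9 tags.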
